A study of Homo sapiens with 6 samples.

Results

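The 10 genes RGS1, RGS2, RGS3, RGS10, RGS12, RGS13, RGS14, RGS16, RGS18 and RGS19 encode regulators of G protein signalling. They were taken with every probe set (a group of short probes for a transcript) for which the array annotation gave the gene as its only symbol, which came to 31 of the 54613 probe sets on the array and to 10 of the 19775 genes with a symbol of their own. Total RNA of the established human cell line BCWM1, which comes from Waldenström macroglobulinemia (a cancer of cells between B lymphocyte and plasma cell), was measured in 3 samples of parental cells and 3 samples of mutated cells. The series title names the mutation as C1013G in CXCR4, the receptor of the chemokine CXCL12. The labels give no further allele, agent or time for either group, and the sources used here do not say how the mutated cells were made, whether they are 1 clone or whether a vector control exists. The labels do not say that a group's samples came from separate cultures. The p-values therefore cover only the spread between these samples, and that spread may be technical.

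G protein-coupled receptors such as CXCR4 load GTP onto the alpha subunit of a heterotrimeric G protein, which then parts from the beta and gamma subunits, and both parts signal. RGS proteins bind the active alpha subunit and speed its hydrolysis of GTP, which ends the signal. In B lymphocytes they set how strongly and how long cells answer chemokines, and RGS1 and RGS13 are known from the B cells of germinal centres. The members fall into the R4 subfamily, which is little more than the RGS domain itself (RGS1, RGS2, RGS13, RGS16, RGS18 and the longer RGS3), the R12 subfamily (RGS10, RGS12 and RGS14) and the RZ subfamily (RGS19).

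Arrays of the same group had a Pearson's r of 0.994 to 0.996 with each other, and arrays of different groups one of 0.967 to 0.970, a description over probe sets that are not replicates. Array medians ran from 28.5 to 29.1 in parental and from 30.9 to 31.8 in mutated cells, on the linear intensity scale used throughout. Of 7 B cell markers tested, 2 were called higher, CD79B (log2 change 0.63) and CD79A (0.23), 1 lower, CD22 (-0.41), and 4 did not pass. Over all genes tested, 49.0% were called in either direction. The calls on CD79B and CD79A held under 15 and 13 of 17 alternatives. The pan-B marker MS4A1 read 10426 ± 184 in parental and 10233 ± 329 in mutated cells (SD, n = 3). Of 8 plasma cell markers 5 were called lower, led by TNFRSF17 (-1.89) and PRDM1 (-1.59), and 1 higher, MZB1 (0.48). The T cell receptor genes CD3D, CD3E and CD3G and the monocyte genes CD14 and LYZ had means of 2.26 to 19.6 in both groups, whereas S100A9, from the myeloid list, read 674 ± 26.7 and 2734 ± 64.4 (SD, n = 3). The brightest CXCR4 probe set read 4741 ± 52.1 and 4259 ± 85.5 (SD, n = 3) and was called lower, by 0.15 on the log2 scale (limma, Benjamini-Hochberg adjusted p = 0.030). That call held under 9 of 17 alternatives and ended whenever 1 sample was left out. Those 9 included the average over the gene's tested probe sets. CXCR4 also has the probe sets 209201_x_at and 211919_s_at, whose single readings are not given here. Whether the CXCR4 probes tell the normal from the mutated transcript was not analysed here.

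RGS18 had the largest change among the members and rose from near the dim end of the array, RGS19 and RGS10 rose slightly, and RGS16 fell slightly. RGS10 kept its call under 10 of 17 alternatives, RGS16 under 16 of 17, and RGS18 and RGS19 under all 16 that tested them. RGS1, the B cell regulator with bright readings in both groups, changed by -0.10 on the log2 scale and did not pass. With each gene represented by its brightest tested probe set, 3 members were called higher, 1 was called lower and 6 did not pass (limma, adjusted p under 0.05). Of all 13644 genes tested, 30.1% were called higher, 18.9% lower and 49.0% in either direction, so the 4 of 10 members called are close to the share of all genes. The median log2 change was -0.07 over the members and 0.04 over all genes tested. Both signs turned with the processing: the members' median was 0.06 when each gene's probe sets were averaged, and that of all genes was -0.03 with quantile normalization and -0.04 with median centring. In 8 members the mutated and parental values did not overlap, beside 61.2% of all genes. Over probe sets, 23 of 31 were bright enough to be tested, 5 were called higher and 3 lower, and 13 did not overlap between groups. Of all 32768 tested probe sets 30.9% were called higher, 16.6% lower and 47.5% in either direction, and 57.8% did not overlap.

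**Figure D1:**
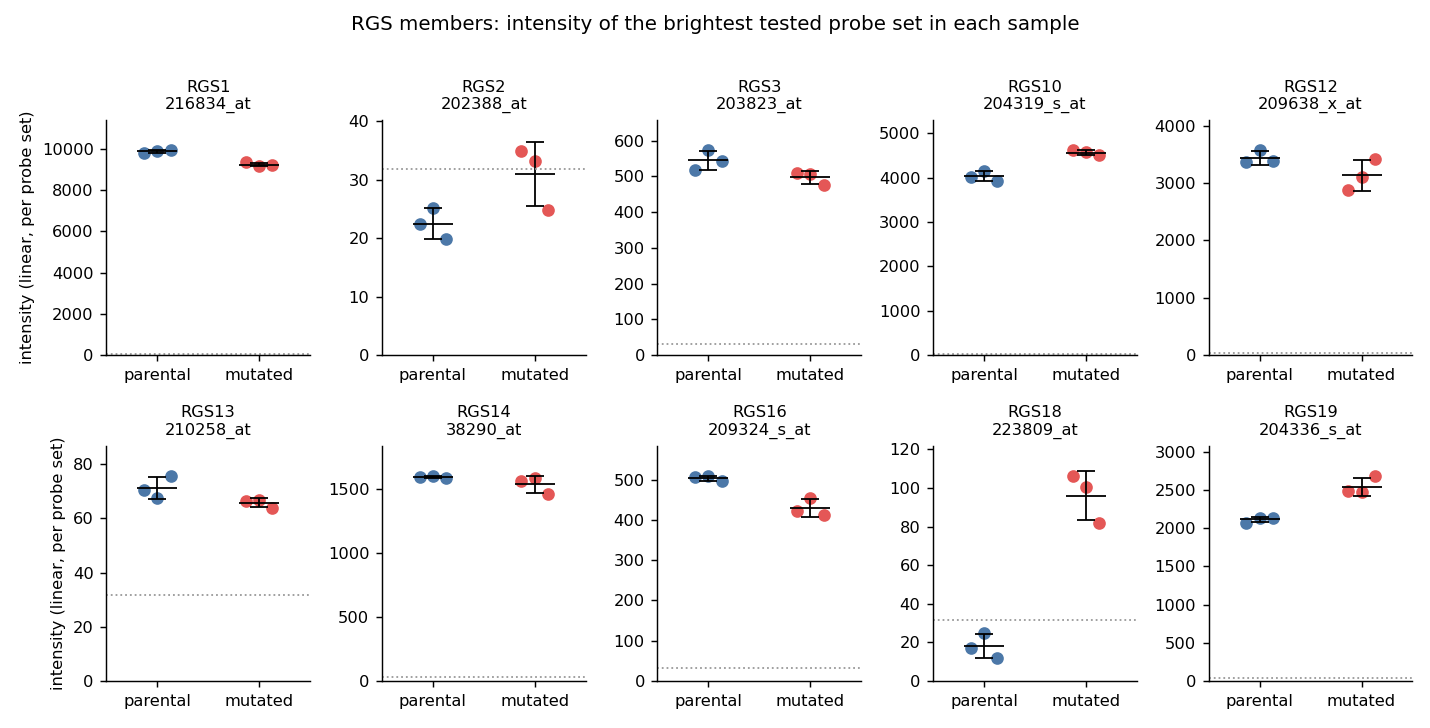
Linear intensity of the brightest tested probe set of each of the 10 RGS genes (y axis from 0, own scale in each panel) in 3 parental and 3 mutated samples, with mean and SD as black lines. The dotted line is the highest array median, 31.8; the 3 RGS18 values rise from below it in parental to above it in mutated cells, while RGS1, RGS3 and RGS14 shift by little.

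In the R4 subfamily, RGS18, best known from platelets and their precursors, has 1 probe set, 223809_at. It read 17.1, 24.8 and 12.1 in the parental and 106, 100.5 and 81.6 in the mutated samples. All 3 parental values lay under every array median and all 3 mutated values above it, with a wide gap between the groups. The mean rose from 18.0 ± 6.36 to 96.1 ± 12.8 (SD, n = 3), which is a log2 change of 1.73 (SE 0.150; Benjamini-Hochberg adjusted p = 1.9e-04 by limma) on the scale log2(intensity + 16), which understates changes of dim genes. RGS18 entered the test only through the mutated samples, since its parental mean on the log2 scale lay under the brightness limit, an intensity of 18.0. With no brightness limit the change was the same and was still called. In RNA of a whole culture, more cells that express a gene and more RNA per cell cannot be told apart. Of the platelet and megakaryocyte markers, the 3 tested did not pass, and the summed level of those 3 ran from 80.0 to 113 in parental and from 82.6 to 90.3 in mutated cells. The platelet gene PPBP had means of 2.32 and 2.57 and was too dim to be tested, as was GP9. S100A9 was the only one of 4 tested myeloid markers to be called, and the summed level of the 4 ran from 724 to 773 in parental and from 2756 to 2867 in mutated cells. Its part in the RGS18 result was not tested.

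RGS18, RGS1, RGS13 and RGS2 lie next to each other on chromosome 1, in this order, with RGS21 between RGS18 and RGS1, and no other protein-coding gene of the RefSeq table (GRCh38.p14) lies between them. RGS16 is on the same chromosome. The genes directly beside RGS18 gave no test: RGS21 has no probe set of its own. BRINP3, on the other side, read 1.00 to 3.19 and was too dim. UCHL5, the next protein-coding gene past RGS2, fell on 220083_x_at, by 0.41 on the log2 scale (Benjamini-Hochberg adjusted p = 7.3e-04 by limma), while its other tested probe sets did not pass, at -0.32 on 219960_s_at (adjusted p = 0.083), -0.05 on 1570145_at (adjusted p = 0.61) and 0.20 on 229248_at (adjusted p = 0.073). The 250 bases before the RefSeq start of each member on chromosome 1 are shown because RGS18 rose while no call was made for RGS1, RGS13 and RGS2. Capitals mark, on either strand, the TATA box core TATAAA, the cAMP response element core TGACGT (also read as ACGTCA on the other strand) and the GC box core GGGCGG (also CCGCCC); the AP-1 site TGANTCA was searched as well and occurred in none of them. The motifs were chosen after the values were known.
RGS18, chr1:192158212-192158461, forward strand: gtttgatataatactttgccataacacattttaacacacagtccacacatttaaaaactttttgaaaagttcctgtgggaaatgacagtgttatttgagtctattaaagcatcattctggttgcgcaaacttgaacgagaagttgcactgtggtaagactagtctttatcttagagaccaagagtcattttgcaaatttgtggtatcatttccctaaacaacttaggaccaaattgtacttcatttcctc
RGS1, chr1:192575523-192575772, forward strand: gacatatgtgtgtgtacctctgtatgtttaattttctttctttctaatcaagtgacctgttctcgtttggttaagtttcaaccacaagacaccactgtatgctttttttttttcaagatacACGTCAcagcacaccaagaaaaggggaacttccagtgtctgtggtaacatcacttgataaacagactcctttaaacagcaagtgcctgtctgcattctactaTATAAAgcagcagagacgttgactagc
RGS13, chr1:192635897-192636146, forward strand: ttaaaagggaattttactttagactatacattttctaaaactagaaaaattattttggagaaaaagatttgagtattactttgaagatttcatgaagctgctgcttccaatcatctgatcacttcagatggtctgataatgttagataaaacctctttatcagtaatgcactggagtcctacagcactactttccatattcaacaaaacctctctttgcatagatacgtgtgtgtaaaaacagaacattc
RGS2, chr1:192808789-192809038, forward strand: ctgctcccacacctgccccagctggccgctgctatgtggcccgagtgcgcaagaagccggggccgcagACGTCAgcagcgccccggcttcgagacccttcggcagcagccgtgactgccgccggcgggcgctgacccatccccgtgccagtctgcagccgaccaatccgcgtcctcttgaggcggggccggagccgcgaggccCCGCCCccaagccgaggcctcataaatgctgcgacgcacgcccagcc
RGS16, chr1:182604390-182604639, reverse strand: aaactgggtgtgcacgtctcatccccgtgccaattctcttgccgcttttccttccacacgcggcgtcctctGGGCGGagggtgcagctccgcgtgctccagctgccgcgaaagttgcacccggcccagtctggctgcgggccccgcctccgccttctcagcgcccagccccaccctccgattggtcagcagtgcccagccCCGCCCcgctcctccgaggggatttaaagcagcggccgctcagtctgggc

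The RGS18 and RGS13 promoters held none of the 4 motifs, with a GC content of 34.8% and 32.0%. RGS1 held TATAAA at 27 to 22 bases before the start and ACGTCA at 129 to 124 bases before it, with 39.2% GC. RGS2 and RGS16 were GC-rich, at 72.8% and 68.4%, beside a median of 58.0% over the 35116 RefSeq promoters of this length. RGS2 held 1 ACGTCA and 1 GC box core, and RGS16 held 2 GC box cores. Of all these promoters, 10.7% held TATAAA, 7.10% TGACGT, 42.6% GGGCGG and 6.57% TGANTCA on either strand. No match says only that these letters are not in this window.

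RGS1 limits the response of B cells to CXCL12 and other chemokines. Its probe set 216834_at read 9796, 9927 and 9930.1 in the parental and 9353, 9166 and 9227 in the mutated samples. The groups did not overlap, but the log2 change of -0.10 (95% interval -0.20 to 0.01) did not pass (Benjamini-Hochberg adjusted p = 0.12 by limma). Its probe set 202988_s_at (the suffix _s_at marks probes shared by several transcripts) read 5885 to 6018 in parental and 5728 to 5770 in mutated cells, a log2 change of -0.05 with an adjusted p of 0.35 in the same limma fit. With each array centred on its median, 216834_at passed, at -0.18 (limma, adjusted p = 0.023), whereas with quantile normalization it did not, at -0.09 (adjusted p = 0.12). With limma's trend and robust options the log2 change stayed at -0.10 and passed, with a smaller SE of 0.027 (adjusted p = 0.0091). The other RGS1 probe set, 202989_at, stayed between 3.64 and 11.8 and was too dim to be tested.

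RGS13, a short R4 regulator and a marker of germinal centre B cells, read 70.5, 67.6 and 75.5 on 210258_at in parental and 66.4, 66.9 and 63.8 in mutated cells. The 3 mutated values lay just under the 3 parental ones, and the log2 change of -0.09 (SE 0.054) did not pass (Benjamini-Hochberg adjusted p = 0.20 by limma). It passed with quantile normalization, at -0.27 (limma, adjusted p = 0.0065), and with median centring, at -0.17 (adjusted p = 0.043). On 1568752_s_at the groups overlapped, at 17.7 to 23.0 and 17.4 to 28.3. Mast cells are another known source of RGS13, and the 5 mast cell markers on the array were all too dim to be tested, with means of 2.40 to 19.2.

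RGS2, which acts mainly on alpha subunits of the Gq class, has 1 probe set, 202388_at, near the dim end of the array. It read 22.4, 25.2 and 19.9 in parental and 34.8, 33.3 and 24.8 in mutated cells, where mutated sample 3 fell inside the parental range. The log2 change was 0.28 (95% interval 0.04 to 0.52), with an unadjusted p of 0.027 and an adjusted p of 0.055 (limma with Benjamini-Hochberg adjustment), so it did not pass. Without mutated sample 3 it passed, at 0.38 (limma, adjusted p = 0.0095), and it also passed with array weights, at 0.32 (adjusted p = 0.021).

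RGS16, an inducible regulator that dampens chemokine responses, fell on both of its bright probe sets. On 209325_s_at it read 461, 469 and 469.8 in parental and 362, 374 and 356 in mutated cells, a log2 change of -0.35 (SE 0.046; Benjamini-Hochberg adjusted p = 0.0012 by limma). On 209324_s_at, which represented the gene, it read 506, 508 and 496 in parental and 421, 454 and 412 in mutated cells, a log2 change of -0.22 (SE 0.054; Benjamini-Hochberg adjusted p = 0.014 by limma). The groups were apart on both probe sets, and the parental samples lay close together. Both probe sets carry the suffix _s_at. On the third, 242212_at, parental values of 32.8 to 40.5 overlapped mutated values of 20.0 to 37.0, and the log2 change of -0.26 (SE 0.142) did not pass (limma, adjusted p = 0.18), so the call on the gene ended when probe sets with that suffix were left out.

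RGS3, a longer R4 regulator with several transcript forms, gave different answers on its probe sets. On 220300_at it read 113, 118 and 106 in parental and 163, 163 and 178 in mutated cells, a log2 change of 0.52 (SE 0.061; Benjamini-Hochberg adjusted p = 6.8e-04 by limma). On 203823_at, which represented the gene, it read 519, 572 and 543 in parental and 510.3, 506 and 477 in mutated cells, lower in all 3 mutated samples, and the log2 change of -0.13 (SE 0.058) did not pass (limma, adjusted p = 0.12). Quantile normalization and median centring brought this fall past the threshold, at -0.18 and -0.20 (limma, adjusted p = 0.032 and 0.038). The third probe set, 232223_at, overlapped between the groups at 17.3 to 25.5. The difference between the changes on 220300_at and 203823_at was itself tested, as the difference of the 2 log2 values in each sample, and came to 0.65 (SE 0.084; limma with Benjamini-Hochberg adjustment over 12494 such pairs, adjusted p = 0.0023). Which RGS3 transcripts each probe set detects was not analysed here.

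**Figure D2:**
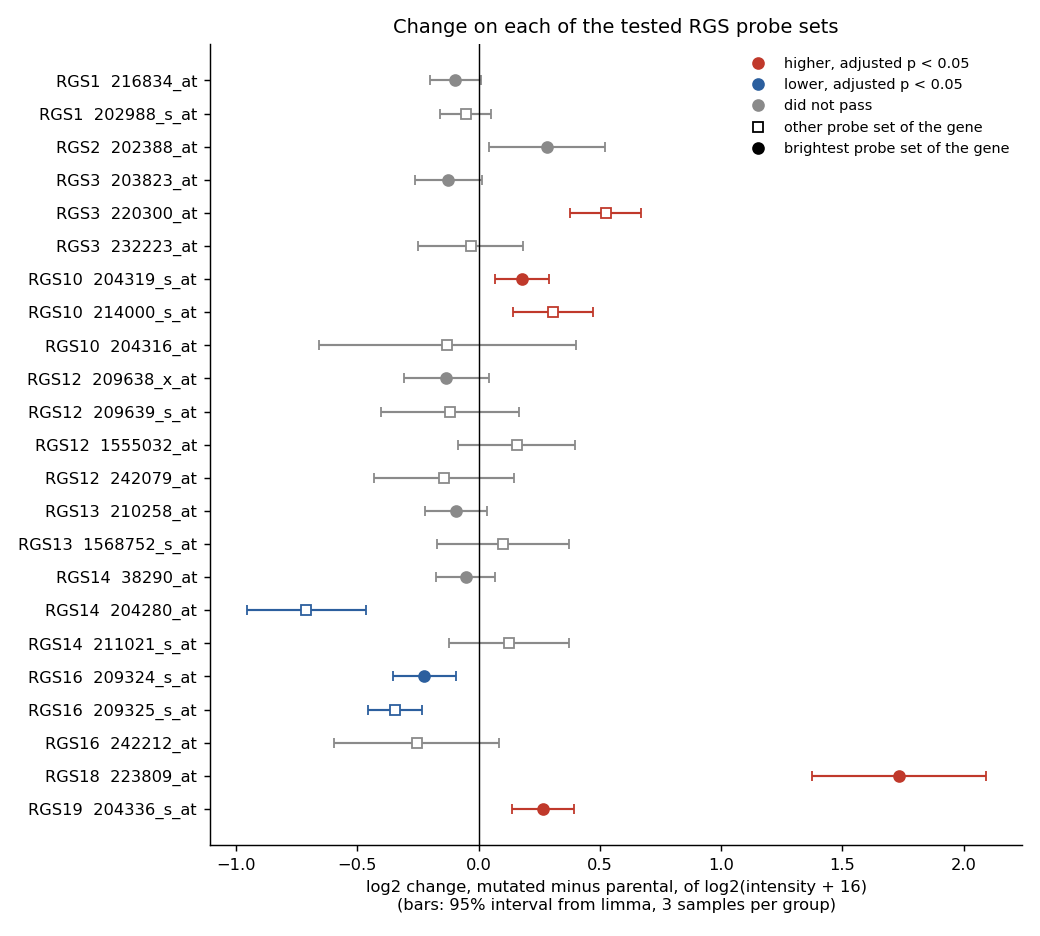
Log2 change (mutated minus parental, x axis) of the 23 tested RGS probe sets, with 95% intervals from limma; filled circles represent the gene, open squares are its other probe sets, red and blue passed the test. The interval of RGS18 lies from 1.37 to 2.09, apart from those of all other probe sets, while RGS3 and RGS14 each have 1 probe set that passed beside others near 0.

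In the R12 subfamily, RGS10, a short regulator found in many leukocytes, rose on 2 of 3 probe sets. On 204319_s_at it read 4006, 4151 and 3933 in parental and 4610.4, 4573 and 4510.1 in mutated cells, a log2 change of 0.18 (SE 0.047; Benjamini-Hochberg adjusted p = 0.019 by limma). The groups were apart, but the call on this probe set ended with median centring, at 0.10 (limma, adjusted p = 0.16), and when parental sample 1 or 3 or mutated sample 1 or 2 was left out (adjusted p = 0.058 to 0.063). On 214000_s_at it read 56.1, 60.6 and 67.6 in parental and 80.6, 82.6 and 75.8 in mutated cells, a log2 change of 0.31 (SE 0.069; limma, adjusted p = 0.011), which fell to 0.12 with quantile normalization (adjusted p = 0.19). On 204316_at the mutated samples reached both below and above the parental values of 35.8 to 51.1.

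RGS14, a scaffold with Ras-binding and GoLoco motifs beside its RGS domain, also differed between probe sets. On 204280_at it read 298, 248 and 249 in parental and 174, 154 and 139 in mutated cells, a log2 change of -0.71 (SE 0.102; Benjamini-Hochberg adjusted p = 0.0017 by limma). On 38290_at, which represented the gene, it read 1590.3, 1599.8 and 1588 in parental and 1563, 1582 and 1461 in mutated cells, a log2 change of -0.05 (SE 0.051) that did not pass (limma, adjusted p = 0.43). Both probe sets had all mutated values under the parental ones, by a wide gap on the first and a narrow one on the second. The difference between the 2 changes was -0.66 (SE 0.099; limma, adjusted p = 0.0039), and the third probe set, 211021_s_at, overlapped between groups at 28.0 to 40.3. The fall on 204280_at passed under all 15 alternatives run on single probe sets, with log2 changes of -0.86 to -0.58.

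RGS12, a large relative of RGS14 with further protein-binding domains, has 10 probe sets, of which 9 stayed between 1.00 and 37.1 in every sample. The remaining one, 209638_x_at, represented the gene and read 3364, 3569.5 and 3382 in parental and 2884, 3114 and 3423 in mutated cells. The suffix _x_at marks probes that can also bind transcripts of other genes, so this reading is uncertain as a level of RGS12. Mutated sample 3 reached into the parental range, and the log2 change of -0.13 (SE 0.073) did not pass (Benjamini-Hochberg adjusted p = 0.18 by limma). Without that sample it passed, at -0.20 (limma, adjusted p = 0.048). Of the other 9 probe sets, 3 were tested and did not pass, with log2 changes of -0.14 to 0.16. The change on 1555032_at, 0.16, differed from that on 209638_x_at by 0.29 (SE 0.082; limma, adjusted p = 0.036), a call that ended without any 1 of parental samples 2 and 3 and mutated samples 1 and 3 (adjusted p = 0.081 to 0.11), without the brightness limit (0.073) and with a pseudocount of 1 (0.063). Of the 6 dim probe sets, 1555033_a_at read 16.3, 10.1 and 11.6 in parental and 2.51, 1.92 and 5.78 in mutated cells, which did not overlap but had no test.

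In the RZ subfamily, RGS19, a regulator anchored to membranes that was first described as the Galpha-interacting protein GAIP, has 1 probe set, 204336_s_at. It read 2075, 2136 and 2137 in parental and 2485, 2475 and 2683 in mutated cells, with the groups apart. The mean rose from 2116 ± 35.6 to 2547 ± 117 (SD, n = 3), which is a log2 change of 0.26 (SE 0.053; Benjamini-Hochberg adjusted p = 0.0068 by limma). The rise passed under all 15 alternatives run on single probe sets, with log2 changes of 0.19 to 0.285.

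Over the members, 7 had more than 1 tested probe set, which made 13 pairs of a probe set with the gene's brightest one. In 3 of these pairs, in RGS3, RGS12 and RGS14, the 2 changes differed (limma, adjusted p under 0.05), beside 30.1% of the 12494 such pairs on the array. When the tested probe sets of each gene were averaged, RGS14 was called lower, at -0.21 (limma, adjusted p = 0.047), and RGS10 was not called, at 0.12 (adjusted p = 0.22). RGS2, with its 1 probe set, kept its log2 change of 0.28 in that fit and passed narrowly (adjusted p = 0.0495), as its SE went from 0.099 to 0.097.

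**Figure D3:**
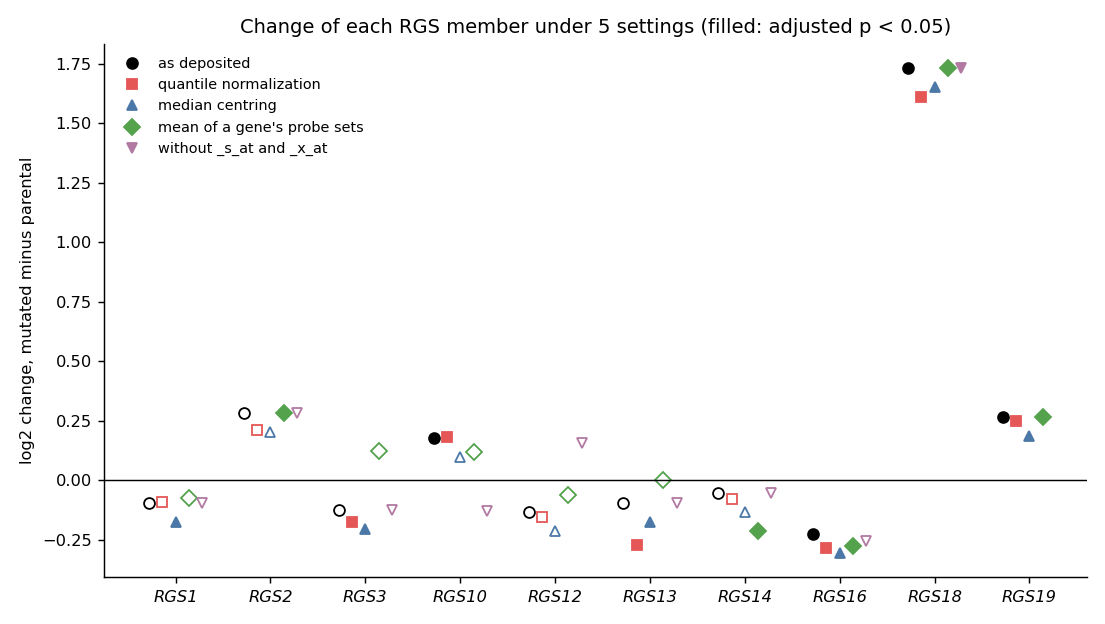
Log2 change of each RGS gene (y axis, mutated minus parental) as deposited, with quantile normalization, with median centring, averaged over the gene's probe sets, and from probe sets that end in neither _s_at nor _x_at; filled symbols passed the test. RGS18 is filled and between 1.61 and 1.73 in all 5. RGS1, RGS2, RGS3, RGS10, RGS13, RGS14 and RGS16 lie between -0.30 and 0.28 and change between filled and open.

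The genes with the 6 values most like those of RGS18, by Euclidean distance between log2 values centred on their mean, were ZNF223 (distance 0.29), TRAT1 (0.29), which encodes an adaptor of the T cell receptor, and JAKMIP2 (0.31). All 3 were dim in parental cells, with means of 4.75 to 9.66, and read 58.2 to 59.1 in mutated cells. Their parental means lay under the brightness limit, so they entered the test only through the mutated samples. Those most like RGS16 were GRWD1 (0.047), NPEPPSP1 (0.051) and WDR26 (0.057), with log2 changes of -0.20, -0.20 and -0.20. TRAT1 is also on the T cell list, of which 3 of 8 genes were tested and 2 were called higher, beside 30.1% of all genes tested. The other one, CD28, kept its call under 6 of 16 alternatives and lost it with quantile normalization and with median centring, among others. With no brightness limit 1 of the 8 was called higher, beside 3744 of all 19775 genes, and the median log2 change of the 8 was 0.06. The summed level of the 3 tested markers ran from 60.5 to 77.3 in parental and from 132 to 150 in mutated cells. That sum includes TRAT1, with means of 5.40 and 59.1, which entered through the mutated samples. CD3D, CD3E and CD3G were too dim to be tested. The part of the T cell genes in the RGS18 result was not tested. With 6 samples in 2 groups this likeness rests mainly on the difference between the groups.

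Of the other RGS genes, 10 of the 11 listed are on the array and 7 were tested: 3 were called higher and 4 did not pass (limma, adjusted p under 0.05). Over all genes tested, 30.1% were called higher and 49.0% in either direction. RGS9 rose from 16.9 ± 0.493 to 68.6 ± 5.89, RGS6 from 49.5 ± 9.91 to 123 ± 19.4 and RGS20 from 11.5 ± 1.65 to 28.9 ± 3.12 (SD, n = 3), with log2 changes of 1.36, 1.09 and 0.71. RGS9 and RGS20 had parental means under the brightness limit and entered through the mutated samples. The bright RGS6 probe set ends in _x_at, and the plain 210270_at read 22.6, 28.7 and 18.8 in parental and 53.0, 51.9 and 65.3 in mutated cells, also a rise. RGS6 and RGS9 belong to the R7 subfamily, whose proteins pair with the G protein beta subunit encoded by GNB5. GNB5 rose from 149 ± 5.20 to 308 ± 18.2 (SD, n = 3), which is 0.97 on the log2 scale (limma, adjusted p = 4.3e-05). Of the other R7 genes, RGS7 was too dim to be tested and RGS11 did not pass.

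Of 12 G protein alpha subunit genes tested, on which RGS proteins act, 4 were called higher, 1 lower and 7 did not pass. Beside this and the counts below, 49.0% of all genes tested were called in either direction, 30.1% higher and 18.9% lower. GNAQ (log2 change 1.34), GNA11 (0.83) and GNA15 (0.77), of the Gq class, rose, and GNA12 fell by 0.44. GNA14, also of the Gq class, read 24.5 ± 2.99 in parental and 16.2 ± 7.03 in mutated cells (SD, n = 3) and did not pass, at -0.35 (limma, adjusted p = 0.12). GNAQ had a parental mean of 15.6, under the brightness limit, and entered through the mutated samples. The main RGS targets in chemokine signalling, GNAI2 and GNAI3, did not pass, at 0.06 and -0.04 (limma, adjusted p = 0.55 and 0.59). Of 14 beta and gamma subunit genes, 5 were called higher and 4 lower, led by GNB4, which rose from 129 ± 8.70 to 619.9 ± 17.4 (SD, n = 3), which is 2.13 on the log2 scale, with GNG11 (0.80) higher and GNB2 (-0.44) lower. Of 13 genes with related RGS domains, 5 were called higher and 2 lower. SNX13 (0.42), GRK3 (0.34), AKAP10 (0.32) and SNX25 (0.27) rose. GRK3, GRK2, GRK5 and GRK6 are kinases that phosphorylate active receptors; the 2 lower calls were GRK2 (-0.24) and GRK6 (-0.22), and GRK5 was the fifth higher one (0.15). GRK2 kept its call under 11 of 17 alternatives, GRK6 under 12 of 16 and GRK5 under 5 of 17. Neither GRK2 nor GRK6 kept it in limma without parental sample 1, parental sample 2 or mutated sample 2, each left out alone. Of 12 Gi-coupled receptor genes of B cells, 3 were called higher and 6 lower, the falls led by CXCR5 (-2.98), CCR9 (-1.95), CCR7 (-0.41) and S1PR1, whose mean went from 92.0 to 38.2. CXCR5 had a mutated mean of 9.27, under the brightness limit, and entered through the parental samples, so the size of its fall is set against a dim group. CXCR3 was represented by 217119_s_at, which did not pass, at 0.31 (limma, adjusted p = 0.18). Its other probe set, 207681_at, went the other way, from 105 ± 7.44 to 27.3 ± 1.87 (SD, n = 3). When each gene's probe sets were averaged, 3 of the 12 receptor genes were called higher and 7 lower. The medians were 0.17 for other RGS genes, -0.01 for alpha subunits, 0.02 for beta and gamma subunits, 0.07 for related domains and -0.12 for the receptors, beside 0.04 over all genes. With quantile normalization the medians in the same order were 0.017, -0.06, -0.04, -0.03 and -0.22, beside -0.03 over all genes. With median centring they were 0.09, -0.09, -0.06, -0.01 and -0.20, beside -0.04.

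**Figure D4:**
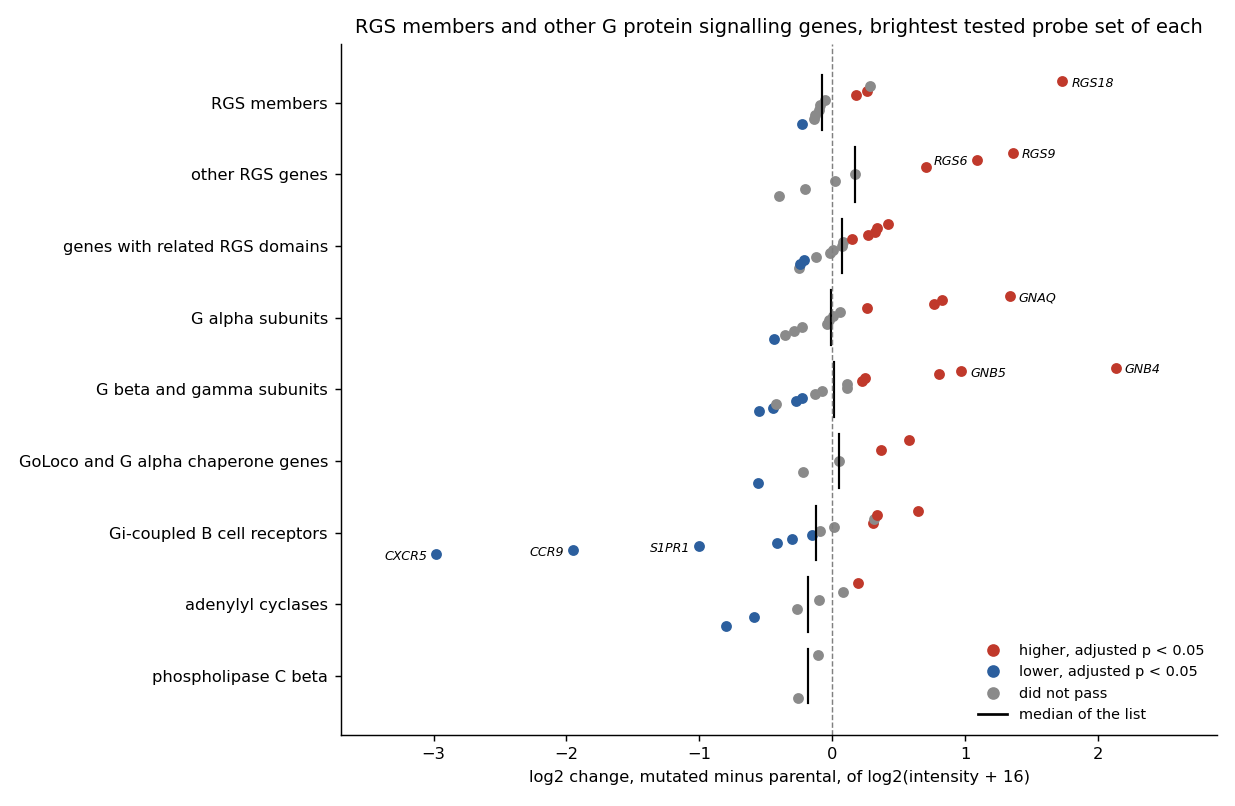
Log2 change (mutated minus parental, x axis) of the brightest tested probe set of each gene, by list (rows), with called genes in red or blue and the list's median as a black bar. Most RGS members lie close to 0 with RGS18 apart at 1.73, RGS6 and RGS9 lie above 1 in the row of other RGS genes, and the row of Gi-coupled receptors reaches to -2.98 at CXCR5, which was under the brightness limit in mutated cells.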

How the data were processed

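Total RNA of 3 parental and 3 mutated BCWM1 samples, grouped by their titles, was copied into biotin-labelled cRNA and hybridised to 1 array each, per the labels' protocols. The authors deposited a linear intensity for each probe set. How they summarised, background-corrected and normalized the arrays is not stated in the sources used here. At most 1.16% of values were identical between any 2 arrays. The number of arrays limits the precision.

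Values were analysed as log2(intensity + 16). The dimmest 40% of probe sets by mean over the 6 samples were left out, and limma 3.58.1 in R 4.3.3 was run on the other 32768 (lmFit, then eBayes; two-sided; group as the only term). Adjusted p-values are Benjamini-Hochberg values across all 32768, called under 0.05. The brightest tested probe set stood for its gene. All member probe sets are named, with up to 4 called genes of smallest adjusted p from each other list and, for the members with the largest rise and fall, the 3 genes nearest by Euclidean distance. Genes named outside this rule, such as GNAI2, GNAI3 and PPBP, were picked with their values known. The test between probe sets of a gene was added after the data were seen. Members and lists were chosen with earlier results of these data known. The fit was also run on simulated data in which a small share of probe sets was raised, as a check of the code. In the real data 47.5% of tested probe sets were called in either direction, so that check says nothing about these calls. Of 41091 probe sets with 1 symbol, 41037 matched RefSeq (GRCh38.p14) by Entrez ID, whose table also gave the gene order and promoters. Figures were drawn with matplotlib 3.10.9.

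Alternatives were quantile normalization, median centring, no brightness filter, the dimmest 60% left out, pseudocounts of 1 and 64, eBayes with trend and robust options, array weights, the replicate number as a block, each sample left out, averaging the probe sets of a gene, and leaving out those ending in _s_at or _x_at.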

Additional observations from a re-analysis of the deposited data

How the results depend on the processing

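The number of members called higher, 3, was 1 from probe sets ending in neither _s_at nor _x_at, where RGS19 has none to test, and ran from 2 to 4 when 1 sample was left out. The number called lower, 1, was 3 with quantile normalization, 4 with median centring, 2 with the trend and robust options, 2 when each gene's probe sets were averaged and 0 without those suffixes (limma; also 0 at an unadjusted p under 0.05), and ran from 1 to 2 when 1 sample was left out. RGS16 was lower in every setting except the one without the suffixes. RGS18 was higher under all 16 alternatives that tested it, and was not tested with the dimmest 60% left out. Averaging and leaving out suffixes could not move its log2 change, as it has 1 probe set with neither suffix. Over the alternatives the RGS18 log2 change ran from 0.96 with a pseudocount of 64 to 2.40 with a pseudocount of 1. The number of member probe sets called lower, 3, was 5 with quantile normalization and 6 with median centring and ran from 3 to 4 when 1 sample was left out, and that called higher, 5, ran from 4 to 6. All genes called, 6683, ran from 5587 to 6483 when 1 sample was left out. The share of all calls that were higher was 61.5% here, 49.4% with quantile normalization and 46.1% with median centring. Of the values of single probe sets and pairs under alternatives, 352 kept their direction and side of the threshold, 11 passed newly, 12 no longer passed and 4 changed sign. Those 4 were RGS13 1568752_s_at (-0.0040) and RGS10 204316_at (0.11) without mutated replicate 1, and RGS3 232223_at without parental replicate 3 (0.0052) and without mutated replicate 2 (0.051), none called. With 1 sample left out these 3 probe sets ran up to 0.20, down to -0.31 and down to -0.11. As the mean of its probe sets RGS3 had a log2 change of 0.12 and RGS13 of 0.0037, and without the suffixes RGS10 had -0.13 and RGS12 0.16, none called. Dim probe sets limit what can be seen: RGS10 204316_at had an SE of 0.221 and the bright 204319_s_at one of 0.047.

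Samples of the 2 groups that share a number had correlations of deviations of 0.110, 0.027 and 0.112, and each sample correlated best with its own number. The numbers were not taken to pair the samples because the labels state no pairing. Whether samples of the same number were handled together was not tested. With the replicate block 4 members were called higher, RGS2 among them (0.28, limma, adjusted p = 0.025), 1 was called lower, and all genes called were 6258.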

Other observations

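Among genes that act next in G protein signalling, 6 of 10 adenylyl cyclase genes, which make cAMP, were tested: 2 were called lower, 1 higher and 3 did not pass (limma, adjusted p under 0.05). Beside this and the counts below, 49.0% of all genes tested were called in either direction. ADCY3 fell from 399.6 ± 44.1 to 222 ± 15.3 and ADCY6 from 72.7 ± 6.46 to 42.8 ± 2.65, while ADCY7 read 1295 ± 37.0 and 1481 ± 37.4 (SD, n = 3), a rise that did not pass with median centring, with the replicate block, or without any 1 of parental samples 1 and 3 and mutated sample 1. Neither of the 2 tested phospholipase C beta genes, PLCB2 and PLCB3, passed, at -0.25 and -0.10 on the log2 scale. Among genes of GoLoco proteins and alpha subunit chaperones, GPSM2 rose from 458 ± 19.2 to 691 ± 33.2, RIC8B from 165 ± 15.7 to 216 ± 6.57, and GPSM1 fell from 118 ± 16.5 to 74.6 ± 4.96 (SD, n = 3), out of 5 tested; the rise of RIC8B did not pass with quantile normalization.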
